A study of Mus musculus with 22 samples.

Results

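The circadian clock genes described here are 10 genes given as a list: Arntl, Clock, Per2, Per3, Cry1, Cry2, Nr1d1, Nr1d2, Dbp and Tef. They were found by matching their symbols to the Ensembl identifiers of the count table, which holds 23119 genes, and all 10 were present and passed the filter on low counts in every comparison. Their counts ran from 205 for Cry1 in 1 ventral saline library to 5680 for Tef in 1 dorsal saline library, so no member's value rests on a few reads.

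RNA was sequenced from bulk striatal tissue of adult male C57BL/6J mice with no engineered allele named in the labels. In the oxycodone groups the mice self-administered oxycodone, a mu-opioid receptor agonist, at 0.25 mg/kg per infusion, 4 h a day for 14 days. The saline groups were yoked controls with saline sessions of the same length and number. There were 5 dorsal oxycodone, 5 dorsal saline, 6 ventral oxycodone and 6 ventral saline libraries. The sources used here give neither the age of the mice nor the hour at which tissue was taken. They do not say that each library came from a separate animal, and in dorsal striatum 2 pairs with the same treatment also carry the same number in their titles, so p-values measure the spread between these libraries. In bulk tissue, fewer cells of a type and less RNA per cell cannot be told apart.

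The mammalian clock is a loop of transcription and repression that runs in most cells with a period of about a day. Arntl (BMAL1) and Clock form the activating pair, which binds E-box sequences and drives the Per and Cry genes, whose proteins then repress that pair. The same pair drives Nr1d1 and Nr1d2, whose proteins (REV-ERB alpha and beta) repress Arntl at ROR elements, and Dbp, which with Tef acts on D-box sequences of further genes such as Per3. Transcripts of Arntl and of its targets therefore peak at different times of day in tissues where the clock has been followed, and the striatum is known to hold such a rhythm.

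The 4 promoter windows below hold a textbook clock motif and are shown because they tie the members to each other: a ROR element for the activator that the REV-ERB proteins repress, D-boxes for a target of Dbp and Tef, and E-boxes for a repressor and for an output gene. Each window covers 250 bases before to 50 bases after a RefSeq start site on GRCm38.p6, is written along the gene's strand, and has the motif in capitals. The Arntl window is chr7:113207261-113207560 on the plus strand, the Per3 window chr4:151044616-151044915 on the minus strand, the Cry1 window chr10:85185005-85185304 on the minus strand and the Tef window chr15:81802423-81802722 on the plus strand.
Arntl: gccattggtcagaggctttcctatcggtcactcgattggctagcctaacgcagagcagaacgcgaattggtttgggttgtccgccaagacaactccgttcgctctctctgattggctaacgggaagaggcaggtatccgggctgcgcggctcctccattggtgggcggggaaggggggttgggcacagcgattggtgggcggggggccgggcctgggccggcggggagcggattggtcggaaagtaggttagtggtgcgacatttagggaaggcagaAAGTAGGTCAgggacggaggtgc
Per3: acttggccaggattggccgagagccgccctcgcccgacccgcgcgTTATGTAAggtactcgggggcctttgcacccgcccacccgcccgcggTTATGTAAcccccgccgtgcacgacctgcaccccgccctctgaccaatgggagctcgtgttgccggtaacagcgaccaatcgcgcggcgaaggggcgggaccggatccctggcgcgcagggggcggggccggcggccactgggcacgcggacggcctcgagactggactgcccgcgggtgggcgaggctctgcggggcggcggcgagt
Cry1: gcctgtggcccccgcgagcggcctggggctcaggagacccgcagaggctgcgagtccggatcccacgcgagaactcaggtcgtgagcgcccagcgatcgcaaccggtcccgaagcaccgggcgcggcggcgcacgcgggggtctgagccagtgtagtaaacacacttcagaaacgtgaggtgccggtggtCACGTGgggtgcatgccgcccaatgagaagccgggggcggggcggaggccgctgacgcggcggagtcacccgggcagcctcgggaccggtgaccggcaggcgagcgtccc
Tef: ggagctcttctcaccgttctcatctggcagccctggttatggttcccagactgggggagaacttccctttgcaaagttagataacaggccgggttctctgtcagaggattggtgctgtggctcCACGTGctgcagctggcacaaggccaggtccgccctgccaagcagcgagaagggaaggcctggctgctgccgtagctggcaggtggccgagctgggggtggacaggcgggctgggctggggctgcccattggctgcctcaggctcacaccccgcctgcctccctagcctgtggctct

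Motifs were searched on both strands as exact letters in 13 windows of 9 members, Per2 having no window in the table. The ROR element, AA and TAGGTCA with any base between them, stood at base 278 of the Arntl window, against 0.219% of all 32851 windows of that length holding it. The D-box TTATGTAA stood at bases 46 and 93 of the Per3 window, against 0.938% of all windows. The E-box CACGTG stood at base 191 of the Cry1 window, at base 124 of the Tef window shown and at base 113 of a second Tef window, against 7.15% of all windows. These letters were not in the windows of Clock, Cry2, Nr1d1, Nr1d2 and Dbp. A match is a description of the letters and not of a bound site.

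Library totals were 11314079 to 21921963 counts in dorsal and 8408829 to 11000345 counts in ventral striatum, and mitochondrial transcripts took 2.93% to 4.12% of dorsal and 5.98% to 9.25% of ventral counts. Lane labels are given for ventral libraries alone, so region, sequencing run and depth cannot be told apart. The 4 striatal neuron markers Ppp1r1b, Rgs9, Pde10a and Rasd2, none of them at 0 in any library, summed to 3569 to 4105 CPM (counts relative to the library total) in the dorsal libraries and to 1515 to 2306 CPM in 9 ventral libraries and 1948 CPM in ventral oxycodone 1. The library labelled ventral saline 6 had 171.3 CPM of these markers and 1316 CPM of 5 glutamatergic neuron markers, against 67.6 to 475 CPM in the same 9 ventral libraries, which goes against its tissue label. The library labelled ventral oxycodone 6 had 4164 CPM of the striatal markers, just above the dorsal range, and 1687 CPM of 5 choroid plexus and ependyma markers, against 31.6 to 50.3 CPM in those 9. Ventral oxycodone 1 stood apart in the clock genes themselves, as described below. Values without some or all of these 3 stand beside the results that they move most.

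Per kilobase of exon, a scale on which levels of different genes can be set side by side, Tef was the most abundant member in each of the 4 groups, at 34.6 ± 2.94 CPM per kb in dorsal oxycodone (SD, n = 5), 34.5 ± 3.90 in dorsal saline (SD, n = 5), 32.0 ± 4.10 in ventral oxycodone (SD, n = 6) and 27.1 ± 1.83 in ventral saline libraries (SD, n = 6). In dorsal libraries Dbp and Nr1d2 came next, at 30.7 ± 5.99 and 31.4 ± 2.77 CPM per kb in oxycodone libraries (SD, n = 5 each), values that overlap each other and that of Tef. Clock and Arntl, the activating pair, were the least abundant in dorsal striatum, at 8.42 ± 0.970 and 8.84 ± 1.63 CPM per kb in oxycodone libraries (SD, n = 5 each). In ventral saline libraries the order differed: Nr1d1 stood at 24.8 ± 2.69 CPM per kb, behind Tef, while Cry1 stood last at 8.00 ± 1.31 and Arntl next to it at 8.79 ± 1.91 CPM per kb (SD, n = 6 each).

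**Figure D1:**
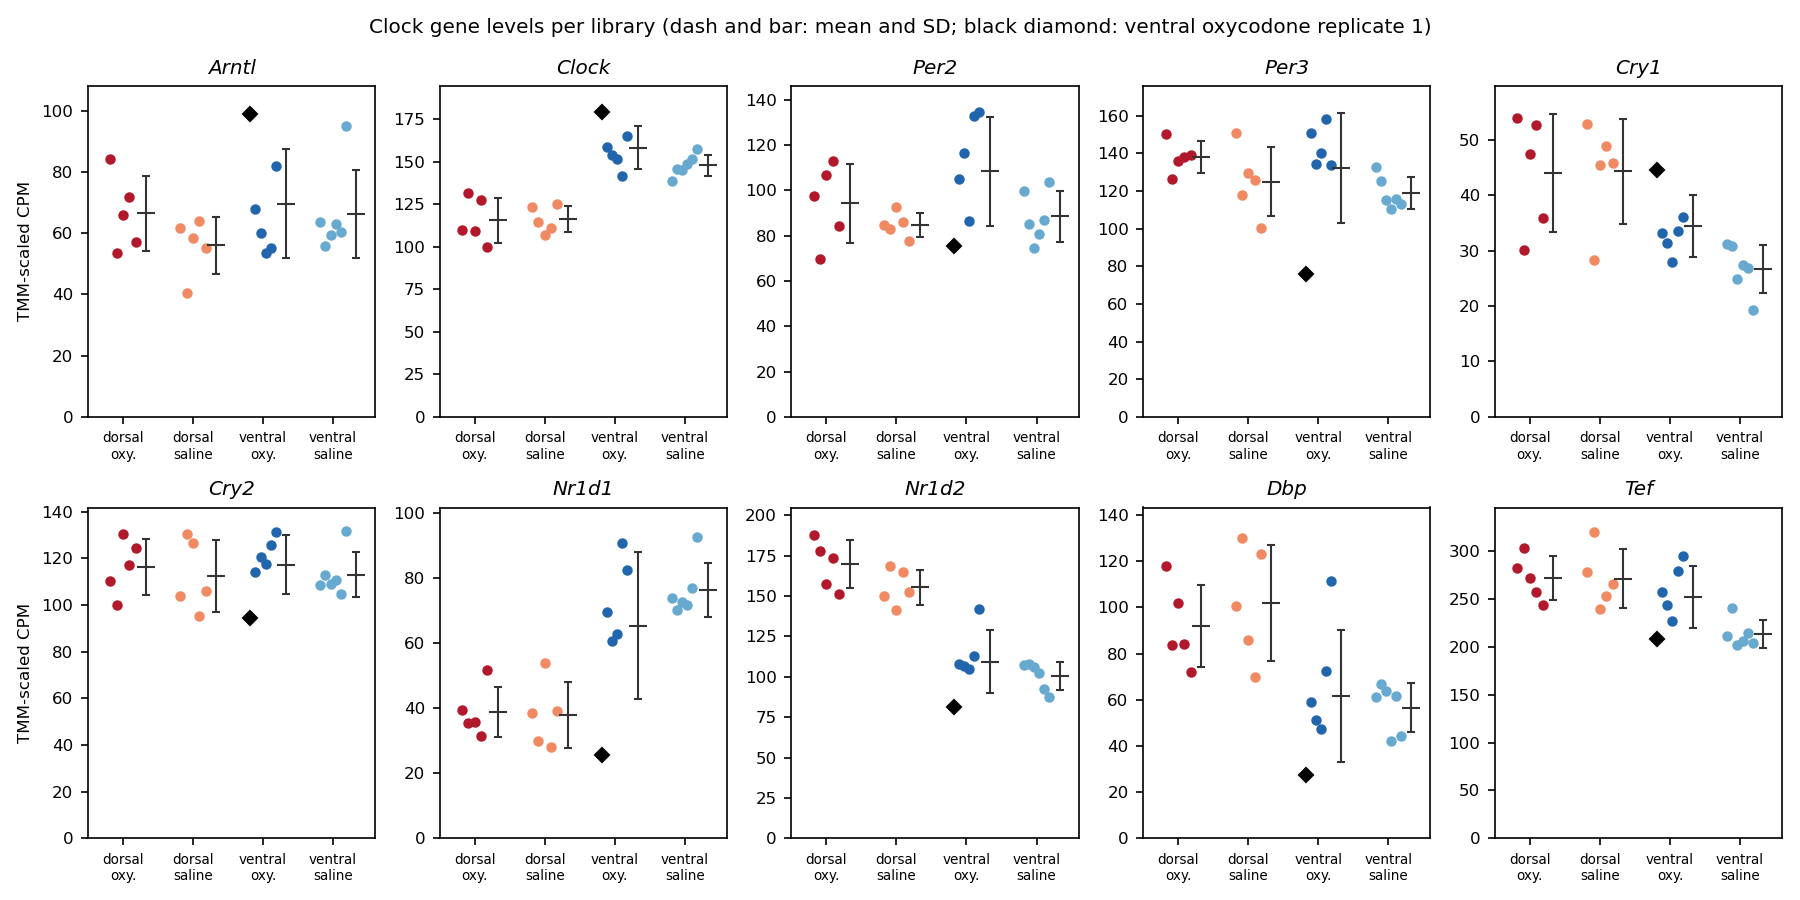
Level of each clock gene in each of the 22 libraries, in TMM-scaled CPM on axes that start at 0, by group (dorsal oxycodone, dorsal saline, ventral oxycodone, ventral saline; dash and bar, mean and SD). The black diamond is ventral oxycodone 1, which lies at 25.6 CPM for Nr1d1 and 27.5 CPM for Dbp, below each other ventral library, and at 99.0 CPM for Arntl, above each of them.

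The clearest pattern in these genes was between regions. In dorsal against ventral striatum, Nr1d2, Dbp, Cry1 and Tef were higher and Nr1d1 and Clock were lower in saline mice, while Nr1d2 was higher and Clock and Nr1d1 were lower in oxycodone mice. The related nuclear receptor genes thus differed in opposite directions, Nr1d2 being 1.54 times and Nr1d1 0.494 times its ventral level in saline mice. In oxycodone mice 3 of 10 members were called by edgeR's quasi-likelihood test at a Benjamini-Hochberg adjusted p under 0.05, beside 47.2% of all 14375 genes tested, and in saline mice 6 of 10, beside 45.8% of 14433. With 10 members neither share is far from its background. The 6 calls in saline mice were kept without the library labelled ventral saline 6 and in each other alternative run. Without ventral oxycodone 1 and both sixth ventral libraries 5 members were called in oxycodone mice, a count with no share over all genes beside it here. Cry1 at a log2 fold change of 0.45 (edgeR adjusted p = 0.0250) and Dbp at 0.65 (edgeR adjusted p = 0.00211) were added. Arntl was at 0.14, Tef at 0.08, Cry2 at -0.07, Per3 at -0.11 and Per2 at -0.25, none of them called. Ventral oxycodone 1 was set apart by the levels of these same genes, so the added calls depend in part on that choice. Over all 10 members and all libraries the median log2 fold change was -0.00 in oxycodone and 0.02 in saline mice, beside -0.01 over all genes tested in each.

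Clock (ENSMUSG00000029238, chr5:76209868-76304792, minus strand), the partner of Arntl in the activating pair, was measured at 110, 131, 109, 127 and 99.9 CPM in dorsal oxycodone libraries, against a lowest value of 142, a median of 156 and a highest value of 180 CPM in ventral oxycodone libraries. In dorsal saline libraries it was at 123, 115, 107, 111 and 125 CPM, against a lowest value of 138.5, a median of 147 and a highest of 157 CPM in ventral saline libraries. Each dorsal library was below each ventral library of its treatment. Dorsal over ventral, the log2 fold change was -0.48 ± 0.09 (SE) in oxycodone mice (edgeR adjusted p = 0.000274) and -0.35 ± 0.07 (SE) in saline mice (edgeR adjusted p = 0.000638). Without the 3 ventral libraries named above it was -0.42 in oxycodone mice, and the call was kept (edgeR adjusted p = 0.000571; range over all alternatives 2.48e-06 to 0.00180).

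Arntl (ENSMUSG00000055116, chr7:113207465-113314126, plus strand), the partner of Clock, did not pass the test in either treatment. Its dorsal oxycodone values were 84.3, 53.3, 65.7, 71.8 and 57.2 CPM, against a lowest of 53.35, a median of 63.9 and a highest of 99.0 CPM in ventral oxycodone libraries. Its dorsal saline values were 61.8, 40.5, 58.3, 63.9 and 55.1 CPM, against 55.65, 61.7 and 94.9 CPM as lowest, median and highest in ventral saline libraries. The groups overlapped in both treatments, and the highest ventral values came from ventral oxycodone 1 and the library labelled ventral saline 6. The log2 fold change, dorsal over ventral, was -0.09 ± 0.17 (SE, edgeR adjusted p = 0.677) in oxycodone and -0.25 ± 0.15 (SE, edgeR adjusted p = 0.179) in saline mice, and it was 0.06 in oxycodone mice without ventral oxycodone 1.

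Among the repressors, Cry1 (ENSMUSG00000020038, chr10:85131700-85185064, minus strand), whose promoter window holds the E-box shown above, was the 1 member of 4 with a call. In dorsal saline libraries it was at 52.8, 28.3, 45.5, 48.95 and 45.7 CPM, against a lowest of 19.3, a median of 27.1 and a highest of 31.3 CPM in ventral saline libraries. All dorsal saline libraries but the second were above each ventral one, and that library fell within the ventral range. Its log2 fold change, dorsal over ventral, was 0.72 ± 0.16 (SE, edgeR adjusted p = 0.00163) in saline mice. In oxycodone mice dorsal libraries had 53.9, 30.1, 47.5, 52.7 and 35.8 CPM, against 27.9, 33.4 and 44.6 CPM as lowest, median and highest in ventral libraries. These groups overlapped more widely, with a log2 fold change of 0.33 ± 0.15 (SE, edgeR adjusted p = 0.0940). Without ventral oxycodone 1 that value was 0.44 and past the threshold (edgeR adjusted p = 0.0262; range over the alternatives 0.0155 to 0.223). That library held the highest ventral Cry1 value, so the rise follows in part from the choice to leave it out.

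Per2 (ENSMUSG00000055866, chr1:91415982-91459324, minus strand), Per3 (ENSMUSG00000028957, chr4:151003652-151044665, minus strand) and Cry2 (ENSMUSG00000068742, chr2:92403646-92434043, minus strand), the other repressors measured, had no call by region. Their log2 fold changes, dorsal over ventral, were -0.23, 0.03 and -0.04 in oxycodone mice and -0.07, 0.06 and -0.02 in saline mice, with SE from 0.09 to 0.16. Cry2 was the steadiest of the repressors, with group means between 112.5 CPM in dorsal saline and 117 CPM in ventral oxycodone libraries. The normal 95% interval of its difference ran from -0.22 to 0.14 on the log2 scale in oxycodone mice and from -0.20 to 0.17 in saline mice.

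Nr1d1 (ENSMUSG00000020889, chr11:98767932-98775333, minus strand) encodes REV-ERB alpha. In dorsal saline libraries it was at 38.5, 29.9, 53.95, 28.2 and 38.95 CPM, against a lowest of 70.2, a median of 73.1 and a highest of 92.5 CPM in ventral saline libraries, with no overlap. Dorsal levels were lower by a log2 fold change of -1.02 ± 0.15 (SE, edgeR adjusted p = 7.27e-05), the largest in size of the 10 members. In dorsal oxycodone libraries it was at 39.5, 35.35, 35.6, 31.5 and 51.7 CPM, against a lowest of 25.6, a median of 66.2 and a highest of 90.8 CPM in ventral oxycodone libraries. The ventral value of 25.6 CPM, in ventral oxycodone 1, lay below each dorsal library, while the other 5 ventral libraries lay above them. The log2 fold change in oxycodone mice was -0.78 ± 0.26 (SE, edgeR adjusted p = 0.0283), a call kept in 4 of 11 fits that each left out 1 library. Without ventral oxycodone 1 and both sixth ventral libraries it was -0.90 (edgeR adjusted p = 6.52e-05; range over the alternatives 6.52e-05 to 0.144). Leaving out the lowest ventral value makes this difference larger by the choice itself, of which the adjusted p-value takes no account.

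Nr1d2 (ENSMUSG00000021775, chr14:18204054-18239127, minus strand), the REV-ERB beta gene, had the reverse order. It was measured at 188, 178, 158, 174 and 151 CPM in dorsal oxycodone libraries, against a lowest of 81.5, a median of 107.5 and a highest of 142 CPM in ventral oxycodone libraries. In dorsal saline libraries it was at 149.9, 168, 142, 165 and 152 CPM, against 87.4, 104 and 108 CPM as lowest, median and highest in ventral saline libraries. No dorsal library overlapped the ventral libraries of its treatment. The log2 fold changes were 0.61 ± 0.11 (SE, edgeR adjusted p = 0.000293) in oxycodone and 0.62 ± 0.08 (SE, edgeR adjusted p = 1.83e-05) in saline mice, and both calls held in all alternatives run.

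About 8.55% of the exon length of Nr1d1 (263 bases) overlaps exons of Thra on the other strand, and Thra had a median of 469 CPM. Likewise 18% of the exon length of Dbp (539 bases) overlaps Sphk2, at a median of 27.0 CPM. The strand setting of the counting is not given in the sources used here. How much of the Nr1d1 and Dbp values came from the other strand, if any, is therefore unknown. The shares of exon length do not bound it, as Nr1d1 reached at most 92.5 CPM, well below Thra.

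Of the output genes, Dbp (ENSMUSG00000059824, chr7:45705088-45710203, plus strand) is a widely used marker of clock-driven transcription. In dorsal saline libraries it was at 100.5, 130.0, 85.9, 70.01 and 123 CPM, against a lowest of 42.0, a median of 61.4 and a highest of 66.9 CPM in ventral saline libraries, with no overlap. In dorsal oxycodone libraries it was at 117.7, 83.7, 102.0, 84.2 and 72.2 CPM, against 27.5, 54.98 and 111.5 CPM in ventral oxycodone libraries. There the lowest value was again ventral oxycodone 1, and the highest was the library labelled ventral oxycodone 6, which overlapped the dorsal group. Dorsal over ventral, Dbp had a log2 fold change of 0.84 ± 0.17 (SE, edgeR adjusted p = 0.00102) in saline and 0.56 ± 0.29 (SE, edgeR adjusted p = 0.148) in oxycodone mice. Without the library labelled ventral oxycodone 6 the value in oxycodone mice became 0.83 and passed the threshold (edgeR adjusted p = 0.00929; range over the alternatives 0.00211 to 0.251). It was 0.43 without ventral oxycodone 1, which did not pass (edgeR adjusted p = 0.161), and 0.65 without all 3 ventral libraries (edgeR adjusted p = 0.00211).

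Tef (ENSMUSG00000022389, chr15:81802421-81826863, plus strand), which encodes a protein of the same family, was at 278, 320.2, 240.0, 254 and 266 CPM in dorsal saline libraries, against 202.0, 209 and 241 CPM as lowest, median and highest in ventral saline libraries. The groups touched in 1 library each. For Tef the log2 fold change was 0.34 ± 0.08 (SE, edgeR adjusted p = 0.00325) in saline mice and 0.08 ± 0.09 (SE, edgeR adjusted p = 0.473) in oxycodone mice.

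**Figure D2:**
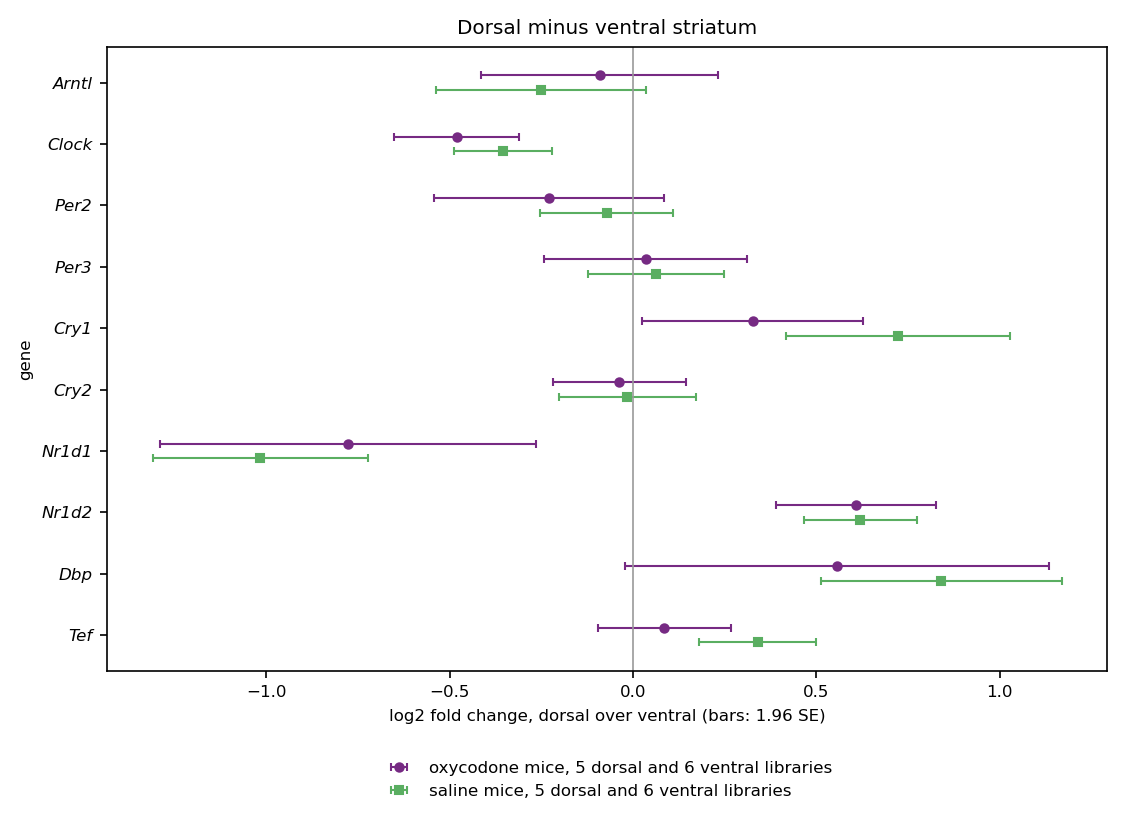
Log2 fold change of each clock gene, dorsal over ventral striatum, in oxycodone mice (purple circles) and saline mice (green squares). Bars show the normal 95% interval. Nr1d2 lies at 0.61 and 0.62 and Clock at -0.48 and -0.35 in oxycodone and saline mice, while Nr1d1 lies at -0.78 and -1.02.

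Groups did not overlap for 2 of 10 members in oxycodone mice, beside 28% of all genes tested, and for 4 of 10 in saline mice, beside 30.5%. The 5 choroid plexus and ependyma markers also moved with region, with summed levels of 79.1 to 3317 CPM in dorsal oxycodone, 366 to 3610 CPM in dorsal saline, 34.04 to 1687 CPM in ventral oxycodone and 20 to 50.3 CPM in ventral saline libraries, and with a marker at 0 in 3 ventral oxycodone libraries. The 5 oligodendrocyte markers summed to 2479 to 3784, 2611 to 3433, 1114 to 2731 and 366 to 1630 CPM in the same 4 groups, with none at 0. Their part in the regional differences of the clock genes was not tested.

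Oxycodone against saline gave no call among the clock genes in either region. In dorsal striatum 0 of 10 members passed the edgeR test, beside 0.206% of 14595 genes, and 0 of 10 had an unadjusted p under 0.05, beside 5.64%. DESeq2 and limma-voom also called 0 of 10. The median log2 fold change of the members was 0.04, beside -0.01 over all genes. No member's dorsal groups were apart, beside 1.29% of all genes. Arntl had the largest change in size, with 84.3, 53.3, 65.7, 71.8 and 57.2 CPM in dorsal oxycodone and 61.8, 40.5, 58.3, 63.9 and 55.1 CPM in dorsal saline libraries. Its log2 fold change was 0.25 ± 0.13 (SE, edgeR adjusted p = 0.913), and 3 of 5 oxycodone libraries were above each saline library.

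The normal 95% intervals, somewhat too narrow with this few libraries, give roughly the sizes that the dorsal comparison leaves in reach. For Tef the interval ran from -0.15 to 0.16 on the log2 scale, and for Clock from -0.19 to 0.17. It was wider for Dbp, from -0.47 to 0.18, for Cry1, from -0.33 to 0.31, and for Nr1d1, from -0.29 to 0.35. The interval of Arntl ran from -0.01 to 0.50.

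In ventral striatum 0 of 10 members passed the edgeR test, beside 0% of 14116 genes (0 called), and 2 of 10 had an unadjusted p under 0.05, beside 9.13%. DESeq2 called 38 and limma-voom 61 of all genes, with 0 members among them. Of the 10 members 9 had a positive log2 fold change, Nr1d1 being the exception, and their median was 0.13, beside -0.00 over all genes, of which 49.1% were positive. Without both sixth ventral libraries, and without ventral oxycodone 1 as well, 7 of 10 were positive. No member's ventral groups were apart, beside 0.786% of all genes.

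The members with an unadjusted p under 0.05 were Cry1 and Tef. Cry1 ran from 27.9 to 44.6 CPM with a median of 33.4 in ventral oxycodone libraries, against 19.3 to 31.3 CPM with a median of 27.1 in ventral saline libraries. The highest oxycodone and the lowest saline value were those of ventral oxycodone 1 and the library labelled ventral saline 6. Its log2 fold change was 0.38 ± 0.12 (SE, edgeR adjusted p = 0.462), and 0.175 without the 3 libraries that stood apart (edgeR adjusted p = 0.348; range over the alternatives 0.154 to 0.942). Tef ran from 209 to 295 CPM with a median of 251 in ventral oxycodone libraries, against 202.0 to 241 CPM with a median of 209 in ventral saline libraries. Its log2 fold change was 0.25 ± 0.09 (SE, edgeR adjusted p = 0.477) and 0.24 without those 3 libraries (edgeR adjusted p = 0.111; range 0.0991 to 0.942).

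The values of the Period genes also depended on which libraries entered. Per3 ran from 76.0 to 158.5 CPM with a median of 137 in ventral oxycodone libraries, against 110.6 to 133 CPM with a median of 115.5 in ventral saline libraries. Apart from ventral oxycodone 1, at 76.0 CPM, each oxycodone library was above each saline library. With all 12 libraries the log2 fold change was 0.16 ± 0.14 (SE, edgeR adjusted p = 0.733). It was 0.28 without ventral oxycodone 1 (edgeR adjusted p = 0.194) and 0.30 without all 3 (edgeR adjusted p = 0.0711), within a range over the alternatives of 0.0711 to 0.988, so that it did not pass the threshold in any. Per2 ran from 75.4 to 135 CPM with a median of 111 in ventral oxycodone libraries, against 74.7 to 103.5 CPM with a median of 86.1 in ventral saline libraries, with wide overlap. Its log2 fold change was 0.30 ± 0.14 (SE, edgeR adjusted p = 0.557), and 0.38 without the 3 libraries (edgeR adjusted p = 0.163; range 0.0991 to 0.942). Leaving out these 3 libraries brought 87 genes past the threshold in ventral striatum, with 0 members among them. Ventral oxycodone 1 was set apart by its clock gene levels and held the lowest oxycodone value of both Per3 and Per2. Leaving that library out thus raises the Per3 and Per2 changes by the choice itself, of which the adjusted p-values take no account.

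**Figure D3:**
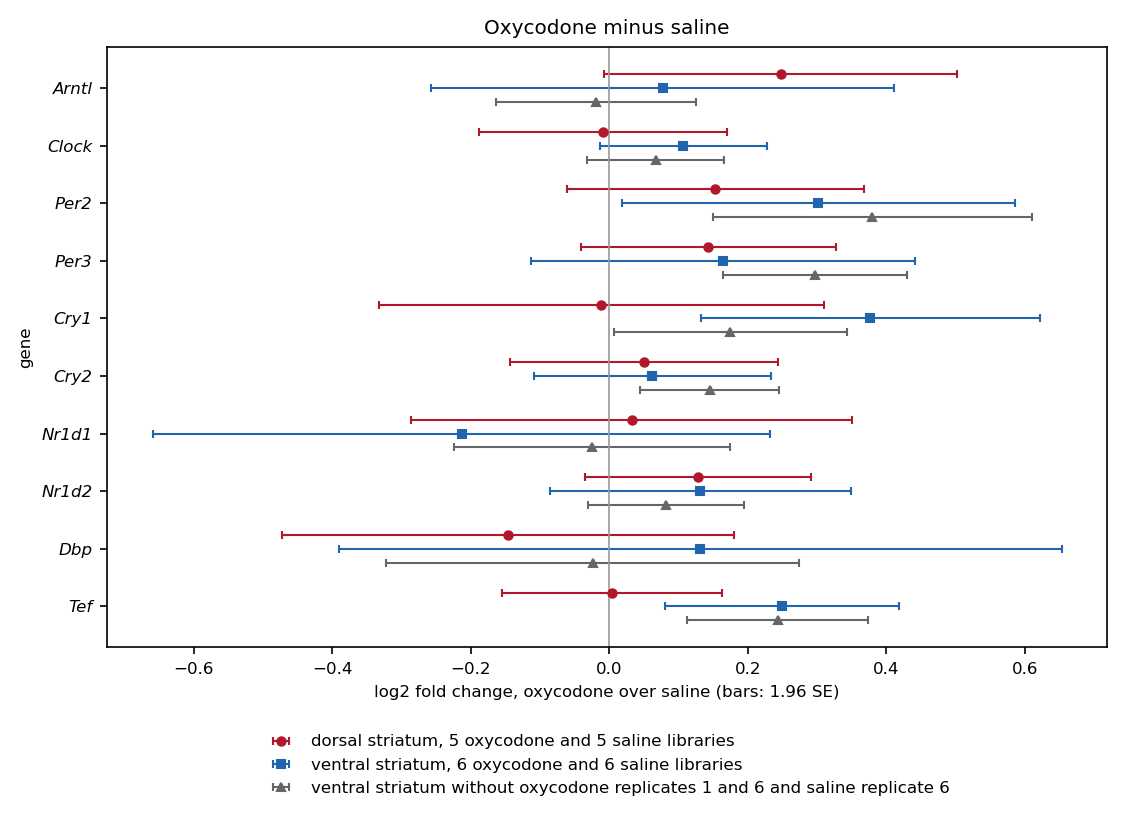
Log2 fold change of each clock gene, oxycodone over saline, in dorsal striatum (red circles), in ventral striatum (blue squares) and in ventral striatum without 3 libraries (grey triangles). Bars show the normal 95% interval. Without those libraries Per3 moved to 0.30 and Cry1 to 0.175, while no member passed the adjusted threshold in any of the 3 fits. Ventral oxycodone 1, among those left out, held the lowest ventral Per3 and the highest ventral Cry1 value.

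The oxycodone effect was also compared between regions in 1 fit of all 22 libraries. No member had a different effect in dorsal and ventral striatum by the edgeR test (0 of 10, beside 0% of 14938 genes; unadjusted p under 0.05 for 0 of 10, beside 4.51%), and DESeq2 and limma-voom called 0 genes as well. Tef came nearest, with a log2 difference, dorsal minus ventral effect, of -0.24 ± 0.12 (SE, edgeR adjusted p = 0.981). For Cry1 the difference was -0.38 ± 0.23 (SE, edgeR adjusted p = 0.981). The lower number of calls by region in oxycodone mice is thus not shown to differ from that in saline mice.

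Ventral oxycodone 1 had the most unusual set of clock gene levels. It was the highest or the lowest of the 12 ventral libraries for 8 of 10 members, whereas it held an extreme for 23.8% of all 14938 genes, the highest value for 12.8% and the lowest for 11.0%. The activators Arntl and Clock and the repressor Cry1 were at their highest there, at 99.0, 179.6 and 44.6 CPM, against 53.35 to 94.9, 138.5 to 165 and 19.3 to 36.0 CPM in the other 11 ventral libraries. Nr1d1, Dbp, Per3, Nr1d2 and Cry2 were at their lowest, at 25.6, 27.5, 76.0, 81.5 and 94.3 CPM. In the other 11 libraries these 5 genes ran from 60.5 to 92.5, 42.0 to 111.5, 110.6 to 158.5, 87.4 to 142 and 104.6 to 132 CPM. On the log2 scale Nr1d1 was at -1.50 and Dbp at -1.15 relative to the median of the other ventral libraries, while Arntl was at 0.71.

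Some genes of the clock outside the list also stood apart in the same library. Per1, a further Period gene, was at 81.9 CPM against 120.1 to 165 CPM in the other 11 ventral libraries, and Ciart, a repressor of the activating pair, was at 12.2 CPM against 23.9 to 41.8 CPM. Hlf, the third gene of the Dbp and Tef family, was at 40.7 CPM against 45.9 to 92.6 CPM. Nfil3, which encodes a repressor that competes with Dbp and Tef at D-boxes, was at 10.6 CPM against 4.43 to 9.14 CPM, the highest of the 12. Of 23 other clock pathway genes, 7 were at their lowest and 1 at its highest in this library, beside 11.0% and 12.8% of all genes. The library labelled ventral oxycodone 6 held 2 lowest and 7 highest values of these genes, beside 14.4% and 14.5% of all genes. The library labelled ventral saline 6 held 4 lowest and 8 highest, beside 24.2% and 22.5%. The striatal neuron markers of ventral oxycodone 1, at 1948 CPM, lay within the range of 9 other ventral libraries. Its 5 astrocyte markers summed to 826 CPM against 635 to 749 CPM in those 9, and its choroid plexus markers to 71.8 CPM against 31.6 to 50.3 CPM. Their part in the clock gene levels was not tested.

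**Figure D4:**
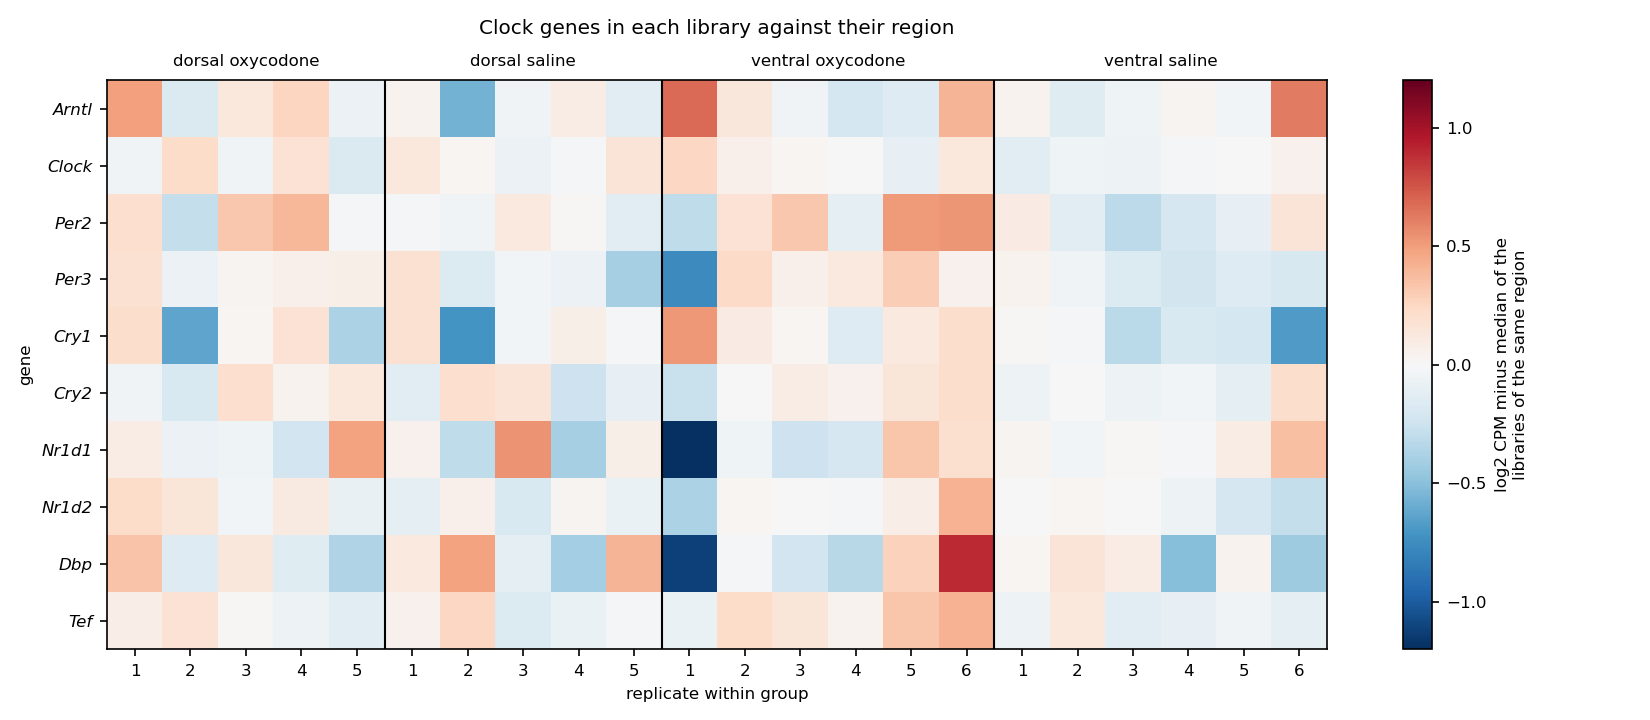
Deviation of each clock gene (down the page) in each library (across, by group and replicate) from the median of the libraries of the same region, in log2 CPM with a prior count of 2; red is above and blue below that median. The column of ventral oxycodone 1 has red cells for Arntl, Clock and Cry1 and blue cells for the other 7 members.

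The distance between the activator and its targets was summarised per library as the log2 CPM of Arntl minus the mean log2 CPM of Dbp, Nr1d1, Nr1d2, Per2 and Per3, with no test. It was 0.97 in ventral oxycodone 1 and ran from -0.98 to 0.17 in the other 11 ventral libraries, the upper end being the library labelled ventral saline 6. In the 10 dorsal libraries it ran from -1.17 in dorsal saline 2 to -0.32 in dorsal oxycodone 1. Ventral oxycodone 1 and the library labelled ventral saline 6 had alike Arntl levels, at 99.0 and 94.9 CPM, and differed in Nr1d1, at 25.6 and 92.5 CPM.

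**Figure D5:**
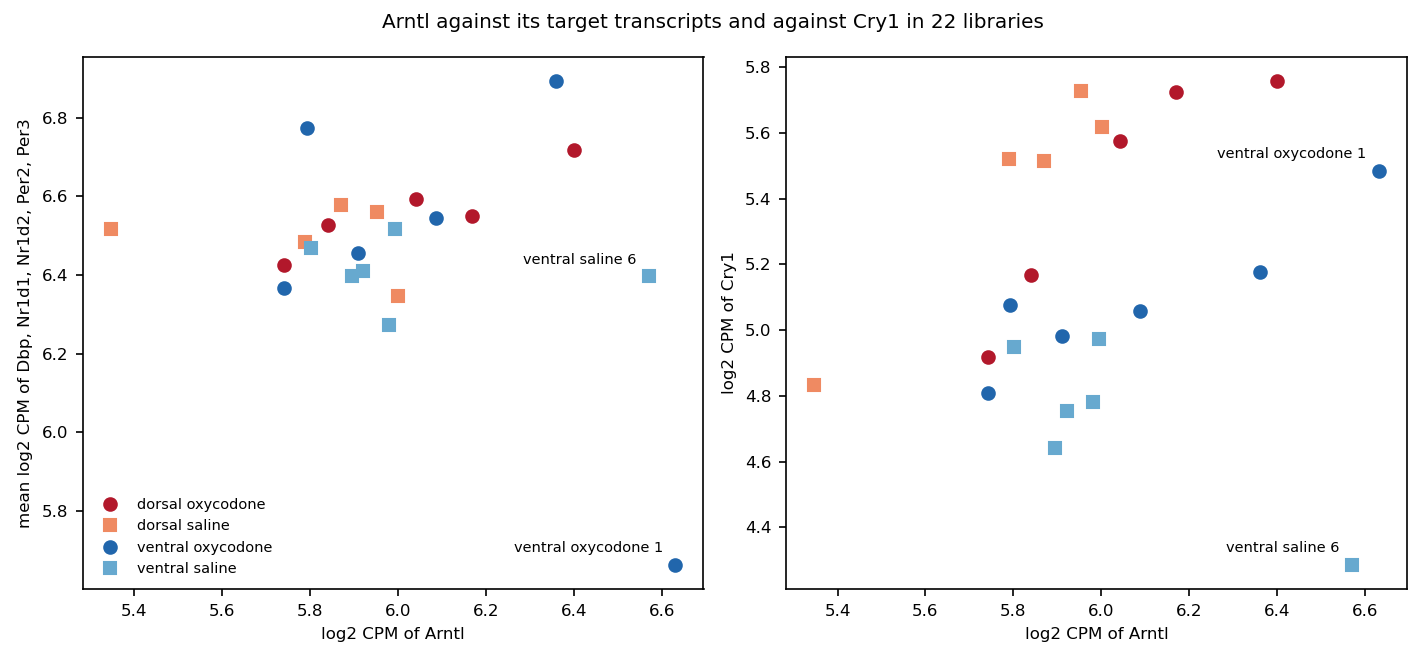
Left, mean log2 CPM of 5 target transcripts against log2 CPM of Arntl; right, log2 CPM of Cry1 against log2 CPM of Arntl; each point is 1 of 22 libraries (circles oxycodone, squares saline; red and orange dorsal, blue and light blue ventral). Ventral oxycodone 1 lies alone at the lower right of the left panel, at 6.63 for Arntl and 5.66 for the targets, and in the right panel the dorsal libraries with more Arntl have more Cry1.

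The spread between ventral libraries was lower without the 3 that stood apart. Ventral oxycodone 1 was set apart by its clock gene levels, so a lower spread of these genes without it follows in part from that choice. With all libraries, the coefficient of variation in ventral oxycodone libraries was 46.5% for Dbp, 34.7% for Nr1d1, 25.6% for Arntl and 8.13% for Clock, beside a median of 11.8% over 10116 genes with a mean of at least 10 CPM. Without ventral oxycodone 1 and the library labelled ventral oxycodone 6 these values were 19.3% for Dbp, 19.4% for Nr1d1, 10.9% for Arntl and 4.62% for Clock, beside a median of 8.27%. In ventral saline libraries it was 21.7% for Arntl and 4.31% for Clock, beside a median of 11.1%, and without the library labelled ventral saline 6 it was 5.26% for Arntl and 3.33% for Clock, beside 7.74%. In dorsal libraries Cry1 varied by 24.0% in oxycodone and 21.2% in saline mice, beside medians of 12.4% and 14.6%, and Nr1d1 by 20.1% and 27.0%.

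Arntl was set against each other member across libraries of a region, giving 18 relations in all, with Benjamini-Hochberg adjustment over them. In the 10 dorsal libraries Arntl and Cry1 varied together, with Pearson's r = 0.83 (permutation p = 0.00026, adjusted p = 0.00468) and Spearman's rho = 0.88 (permutation p = 0.00164, adjusted p = 0.0148). Without the 2 libraries farthest from the median of Arntl, dorsal oxycodone 1 and dorsal saline 2, r was 0.74 (exact permutation p = 0.0162, adjusted p = 0.146). Spearman's rho was then 0.76 (exact permutation p = 0.0368, adjusted p = 0.331). The adjusted call was lost there, with fewer libraries and a smaller range of Arntl. With treatment means taken off r was 0.95 (permutation p = 0.0002, adjusted p = 0.0036). Arntl and Per2 in dorsal libraries had r = 0.62 (permutation p = 0.0504, adjusted p = 0.257) and rho = 0.89 (permutation p = 0.0011, adjusted p = 0.0148), so that the adjusted call was made by rho and not by r. Without those 2 libraries r was 0.89 (exact permutation p = 0.00298, adjusted p = 0.0536) and rho 0.93 (exact permutation p = 0.00223, adjusted p = 0.0402). With treatment means taken off, r was 0.56 (permutation p = 0.108, adjusted p = 0.485) and rho 0.59 (permutation p = 0.0810, adjusted p = 0.322).

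In the 12 ventral libraries Arntl and Clock had r = 0.78 (permutation p = 0.00566, adjusted p = 0.0509) and rho = 0.63 (permutation p = 0.0328, adjusted p = 0.197). This value was 0.65 without ventral oxycodone 1 and the library labelled ventral saline 6, the 2 farthest from the median of Arntl (permutation p = 0.0538, adjusted p = 0.323), and 0.28 without these and the library labelled ventral oxycodone 6 (exact permutation p = 0.471, adjusted p = 0.940). With treatment means taken off and all 12 libraries, r was 0.84 (permutation p = 0.00066, adjusted p = 0.00594) and rho 0.78 (permutation p = 0.0044, adjusted p = 0.0396). Arntl and Per3 had r = -0.62 (permutation p = 0.0572, adjusted p = 0.257) and rho = -0.49 (permutation p = 0.1105, adjusted p = 0.398), and r was -0.02 without the 2 farthest libraries and -0.13 without all 3, so that the size of the negative value rested on them. None of the other ventral relations passed the adjusted threshold.

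Across all 22 libraries with the 4 group means taken off, the genes outside the list most like Arntl, among 14182 ranked by Pearson's r of log2 CPM, were Man1a2 (0.87), Dpp8 (0.87), Atp6v1e1 (0.87), Pdp1 (0.86) and Mff (0.85). Those most like Dbp were Trim11 (0.85), Ccdc88c (0.84), Camk2b (0.82), Cipc (0.80) and Fbxl16 (0.79). Within the list Dbp was most like Tef (0.79) and Nr1d2 (0.77), and Arntl most like Cry1 (0.50). These are descriptions over libraries that share depth, lane and tissue differences.

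Of 23 other clock pathway genes, 11 were called by region in oxycodone mice (4 higher and 7 lower in dorsal striatum) and 7 in saline mice (3 and 4), beside backgrounds of 47.2% and 45.8%. Per1 was lower in dorsal striatum by log2 fold changes of -0.45 in oxycodone and -0.44 in saline mice (edgeR adjusted p = 0.0118 and 0.00136), unlike Per2 and Per3, which had no call. Arntl2, a relative of Arntl, was at -0.76 and -0.89 (edgeR adjusted p = 0.00490 and 0.00427), and Nampt, a clock output gene of NAD synthesis, at -0.62 and -0.57 (edgeR adjusted p = 0.000161 and 0.000455). Fbxl21, a ubiquitin ligase subunit that acts on CRY proteins, was higher in dorsal striatum, at 0.41 and 0.77 (edgeR adjusted p = 0.0334 and 0.00102), and so was the kinase gene Csnk1d, at 0.24 and 0.25 (edgeR adjusted p = 0.0179 and 0.0416).

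Among the ROR genes, whose products activate Arntl at the ROR element, Rora was called in oxycodone mice at 0.48 (edgeR adjusted p = 0.00486), while Rorb was called in neither treatment. Wee1, Csnk1e, Noct and Nfil3 were lower and Timeless higher in dorsal striatum of oxycodone mice, at log2 fold changes of -0.68, -0.33, -0.28, -0.58 and 0.68 (edgeR adjusted p from 0.000362 for Wee1 to 0.0384 for Nfil3). Npas2, which can take the place of Clock, was lower at -0.28 and Gsk3b higher at 0.21 in saline mice (edgeR adjusted p = 0.0359 and 0.0291). Ciart, Bhlhe40, Bhlhe41 and Hlf were not called in any of the 5 comparisons.

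None of these 23 genes was called for oxycodone against saline in either region (0 of 23 each, beside 0.206% of all genes in dorsal and 0% in ventral striatum). In each region 2 of 23 had an unadjusted edgeR p under 0.05, beside 5.64% of all genes in dorsal and 9.13% in ventral striatum. Npas2 had a log2 fold change of 0.20 ± 0.09 in dorsal (SE, edgeR adjusted p = 0.818) and 0.23 ± 0.14 in ventral striatum (SE, edgeR adjusted p = 0.620). Without the 3 ventral libraries that stood apart, Hlf at 0.34 and Npas2 at 0.31 passed the threshold in ventral striatum (edgeR adjusted p = 0.0238 and 0.0471), which no other of the 23 did. Ventral oxycodone 1 was set apart by its clock gene levels. Hlf and Npas2 were at 40.7 and 104 CPM there, against medians of 60.7 and 145 CPM in the other ventral libraries. Leaving it out thus raises both changes by the choice itself, of which the adjusted p-values take no account.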

How the data were processed

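The analysis started from 1 table of raw counts per Ensembl gene, deposited by the authors, in 22 libraries. Per the labels' protocols, total RNA was column-purified and libraries were made with a stranded kit that removes ribosomal RNA. Per the submitters' processing notes, the tools were CASAVA 1.8.2, STAR 2.3 and, with no version given, featureCounts, and the builds mm10, GRCm38 and mm9 with no role given. The strand setting, the handling of multi-mapping reads and the trimming are not given in the sources used here. Symbols and positions came from GENCODE M21 on GRCm38 and promoter windows from RefSeq on GRCm38.p6.

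The deposited counts were tested with edgeR 4.0.16 in R 4.3.3, using filterByExpr, TMM factors, robust glmQLFit and glmQLFTest, two-sided, with Benjamini-Hochberg adjustment over all genes tested and a threshold of 0.05. Each region and each treatment was fitted on its own, and the difference of the oxycodone effect between regions in 1 fit of 4 groups. The fits were tested on simulated data. Levels are CPM (counts relative to the library total) scaled by TMM factors of all 22 libraries, and log2 CPM has a prior count of 2. Fold changes are log2 values with SE, and 95% intervals are normal ones around them. With this few libraries such intervals are narrower than the test allows. For Per2 in ventral striatum the interval was 0.018 to 0.585 on the log2 scale, at an unadjusted edgeR p of 0.0573. Relations used 100000 permutations (exact below 10 libraries, scipy 1.17.1), for which the smallest p is 2e-05. Alternatives were DESeq2 1.42.0, limma-voom 3.58.1 with quality weights, other scaling factors and filters, no robust estimation, all libraries in 1 fit, the lane or the suffix P in titles as a term or to split libraries, dorsal pairs with a shared title number summed, a replicate block, and leaving out each library in turn or the sixth ventral pair. Leaving out ventral oxycodone 1 together with that pair was chosen after seeing the data. The main fits did not pair the regions by title number, although numbers found in both regions carry the same treatment. Same-numbered libraries had correlated deviations in 2 of 5 oxycodone and 0 of 5 saline pairs, at a threshold of 0.1. Their correlations ran from -0.08 to 0.38 in oxycodone and from -0.12 to 0.03 in saline pairs. Some pairs with different numbers also passed 0.1, such as dorsal oxycodone 1 with ventral oxycodone 6 at 0.23, against 0.16 with its own number. Only 1 of 5 dorsal oxycodone and 0 of 5 dorsal saline libraries were closest to a ventral library of their own number. This check cannot show whether same-numbered libraries came from the same animals. No 2 libraries of a group agreed within sampling noise (lowest chi-square per degree of freedom 2.88). The members and the gene lists were chosen with earlier results of these data known. Genes named outside the members are those of 23 other clock pathway genes that were called in any fit, Per1, Npas2, Ciart, Bhlhe40, Bhlhe41, Nfil3 and Hlf in any case, and the 5 genes most like Arntl and most like Dbp. The fit without ventral oxycodone 1 and the sixth pair is named where it brought such a gene past the threshold for oxycodone against saline. By region, calls of these genes when each library was left out are given as counts alone. From each of the clock pathway list and the striatal neuron marker list, 1 gene is not reported here and was left out of all counts and sums.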

Additional observations from a re-analysis of the deposited data

Results flagged for a closer look

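In 5 of 40 tests of a clock gene within a group, 1 library lay far from the others by Dixon's criterion for the gap between an extreme value and its neighbour, which chance meets in about 1 in 20 groups. Per3 was at 75.97 CPM in ventral oxycodone 1, the lowest of its group, whose other 5 libraries had 134.0 to 158.5 CPM. A further 3 values belong to the library labelled ventral saline 6, each the highest of its group. Arntl was at 94.91 CPM there, against 55.65 to 63.56 CPM in the other 5 ventral saline libraries, Cry2 at 131.9 against 104.6 to 112.9 CPM, and Nr1d1 at 92.46 against 70.22 to 76.77 CPM. Tef was at 241.1 CPM in ventral saline 2, against 202.0 to 215.0 CPM in the others. No dorsal library was singled out for any member.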

How the results depend on the processing

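The counts of 0 members called for oxycodone against saline in dorsal and in ventral striatum, and for the difference between regions, held in every alternative run, and so did the count of 6 by region in saline mice. The count of 3 by region in oxycodone mice became 5 with limma-voom and 5 without ventral oxycodone 1 and both sixth ventral libraries. It ran from 2 to 4 when each library was left out in turn, beside 6034 to 6900 of all genes. Shares over all genes are not given here for limma-voom, the fit without those libraries or the replicate block. With all libraries 47.2% of all genes were called in oxycodone and 45.8% in saline mice, so these counts are not read as a result about the members. With the title number as a replicate block 4 members were called in oxycodone mice and 6 in saline mice, and Dbp passed at 0.95 and Cry1 at 0.36, while Nr1d1 at -0.48 did not. The same libraries without the block left Nr1d1 at -0.52, also not past the threshold. The call of Nr1d1 in oxycodone mice was lost without both sixth libraries, at -0.68, and with dorsal pairs summed, at -0.73. Of the 23 other clock pathway genes, 2 were called for oxycodone in ventral striatum without ventral oxycodone 1 and both sixth ventral libraries. By region, leaving out each library in turn called 4 to 8 in saline mice, against 7 with all, beside 5929 to 7227 of all genes. The lowest count was without ventral saline 2, 3 or 4. Such runs called 8 to 12 in oxycodone mice, against 11 with all, beside 6034 to 6900 of all genes. Relations of Arntl past the adjusted threshold by Pearson's r numbered 1 with all libraries, 2 with group means taken off and 0 without the 2 farthest libraries, and by Spearman's rho 2, 2 and 1. The genes called over the whole table in dorsal striatum numbered 85 with DESeq2, 15 with limma-voom, 5 with all libraries in 1 fit and 58 without robust estimation, and 1 to 63 when each library was left out in turn.

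Signs turned only in values that were not called. For oxycodone against saline in dorsal striatum, Clock was at 0.001 with library totals, 0.017 with the title suffix as a covariate and 0.04 in libraries with the suffix, where Nr1d1 was at -0.045 and Dbp at 0.146. In libraries without the suffix Cry2 was at -0.103. Leaving out each library in turn gave -0.059 to 0.039 for Clock, -0.133 to 0.1 for Cry1, -0.004 to 0.109 for Cry2, -0.093 to 0.194 for Nr1d1 and -0.039 to 0.07 for Tef.

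In ventral striatum Arntl was at -0.169 and Nr1d1 at 0.046 in lane 2, and Nr1d2 at -0.075 and Dbp at -0.337 in lane 1. Without both sixth libraries Nr1d2 was at -0.004 and Dbp at -0.196, without ventral oxycodone 1 as well Arntl was at -0.019 and Dbp at -0.024, and with limma-voom Dbp was at -0.019. Leaving out each library in turn gave -0.046 to 0.212 for Arntl and -0.135 to 0.285 for Dbp.

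By region in oxycodone mice, Arntl was at 0.055 and Per3 at -0.024 with limma-voom, and at 0.144 and -0.109 without the 3 ventral libraries. Cry2 was at 0.003 with library totals, 0.018 without both sixth libraries, 0.041 with the replicate block and 0.035 on the same libraries with no block. Leaving out each library in turn gave -0.166 to 0.06 for Arntl, -0.062 to 0.119 for Per3 and -0.081 to 0.027 for Cry2. In saline mice Per2 was at 0.001 with limma-voom, and Cry2 at 0.053 without both sixth libraries and 0.042 on the block's libraries with no replicate block. The ranges were -0.012 to 0.134 for Per3 and -0.075 to 0.053 for Cry2. The cause of these changes was not tested. Depth limits none of the members, whose lowest value was 205 counts, and the spread between libraries sets the precision.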
